A study of Mus musculus with 6 samples.

Results

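The genes described here are 40 genes of hepatic stellate cells, collagens and the extracellular matrix, followed in mouse liver after oral exposure to polystyrene microplastics (PS-MP, fine particles of a packaging plastic). They are a fixed list of symbols, matched through the mouse annotation GENCODE M21 to 40 of the 55536 genes in the files, and 38 of them had enough reads to be tested. The list was not chosen by a cut on measured values, but it was chosen with earlier results of these data known. All 6 libraries came from livers of male C57BL/6 mice, an inbred strain, aged 6 weeks when dosing began. One group of 3 libraries belongs to mice that received oral PS-MP for 8 weeks, at a labelled dose of 0.4 mg/day and 2 dosings weekly, and the control group of 3 belongs to mice that received water on that schedule. The labels name no transgene, deletion or disease model in either group. No label states that the libraries of a group are from separate mice, so p-values here measure the spread between libraries, which may be technical.

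Stellate cells lie between the hepatocytes and the sinusoidal endothelium. In healthy liver they are quiescent, store vitamin A as retinyl esters and secrete growth factors for hepatocytes. After injury they can turn into contractile myofibroblasts that make fibrillar collagen, crosslink it and alter its breakdown, which is how scar tissue builds up in fibrosis. Whole liver was sequenced, so fewer cells of a type and less RNA per cell cannot be told apart in any value below.

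The deposited unit is FPKM, in which reads are divided by the length of the gene's exons and by the library's total. That length merges all annotated exons of a gene. A gene's level can thus be compared between libraries, and levels of different genes only roughly. Whole reads recovered from these values gave totals from 13082210 to 16948343 per library. Hepatocyte markers summed to between 34180 and 44150 FPKM in the 6 libraries, with the most reads in albumin (Alb) and the urea cycle enzyme Cps1, as liver should have. Transcripts of other tissues were also present in some libraries. Over 10 markers of forebrain neurons the sum was 1.48 to 1.70 FPKM in water and 5.47, 2.90 and 35.3 in PS-MP replicates 1, 2 and 3. Most of the water sum was the marker Syt1, at 1.23, 1.01 and 1.06 FPKM. Over 8 fat markers the sum was 37.9, 1.93 and 12.9 FPKM in water replicates 1, 2 and 3 and 1.55, 1.58 and 16.4 in PS-MP. The marker Fabp4 made up most of it in water replicate 2 (1.485 FPKM) and PS-MP replicates 1 and 2 (1.55 and 1.565). Of 9 skeletal and cardiac muscle markers, Ckm, Mb, Myh1, Myh4 and Myh6 had 0 reads in every library, and the whole list had 2 to 21 reads per library.

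Promoters of a pair of genes are printed because the results return to their genes: Acta2, the smooth muscle actin whose values are described below, and Col4a2, which shares its promoter with Col4a1. They are RefSeq windows on GRCm38.p6, from 250 bases before to 50 bases after the start of transcription, and such a window was found for 25 of the 40 genes.
Acta2 promoter, chr19:34255324-34255623, minus strand: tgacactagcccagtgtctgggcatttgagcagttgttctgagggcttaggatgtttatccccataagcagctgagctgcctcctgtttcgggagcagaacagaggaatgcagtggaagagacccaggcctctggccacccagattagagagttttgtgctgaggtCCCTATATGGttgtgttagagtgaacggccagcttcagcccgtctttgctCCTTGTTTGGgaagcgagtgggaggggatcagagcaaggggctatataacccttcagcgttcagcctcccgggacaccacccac
Col4a2 promoter, chr8:11312555-11312854, plus strand: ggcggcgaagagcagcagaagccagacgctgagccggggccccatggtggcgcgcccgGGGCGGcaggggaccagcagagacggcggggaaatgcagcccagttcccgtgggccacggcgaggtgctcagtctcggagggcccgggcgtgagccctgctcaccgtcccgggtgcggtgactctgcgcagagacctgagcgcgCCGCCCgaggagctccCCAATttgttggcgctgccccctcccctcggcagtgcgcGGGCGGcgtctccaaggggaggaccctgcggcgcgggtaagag

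The capitals in the Acta2 window mark 2 matches to the CArG-like motif, the binding site of serum response factor with 1 C or G allowed among its 6 central A or T bases. They start 84 and 34 bases before the start of transcription. This looser motif was chosen after the sequence had been seen. On either strand it was found in 9.98% of all 32851 promoter windows and in 7 of the 25 matched genes (Acta2, Col1a2, Col6a3, Lrat, Mmp14, Tgfbr2 and Timp3). The strict CArG box was found in 1.63% of all windows and in 0 of the 25. The capitals in the Col4a2 window mark 1 CCAAT, which 37.4% of all windows hold on either strand, and 3 copies of GGGCGG or its complement, which 35.7% hold. The starts of Col4a1 and Col4a2 lie 21 bases apart on opposite strands, and their windows share 78 bases. A match is a string of letters, not evidence that a factor binds there.

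Few of these genes differed between PS-MP and water beyond the spread of the libraries. Of the 38 tested, 1 changed, Spon2, a secreted matrix protein that was lower in PS-MP, which is 2.63% of them. Over all 13299 genes the share changed was 0.489%, and 0.248% were lower, by limma-trend with Benjamini-Hochberg adjustment over all genes at a threshold of 0.05. Because the genes were chosen with earlier results known, these shares describe the list and do not test it. An unadjusted p under 0.05 was found for 3 of the 38, Spon2, Acta2 and Mmp2, all lower in PS-MP (7.89%, against 5.57% lower, 7.49% higher and 13.1% in either direction over all genes). In the same 3 genes the PS-MP values all lay below the water values (7.89%, against 8.12% of all genes). None lay wholly above water, against 11.1% of all genes, so non-overlapping genes in either direction made up 7.89% of the 38 and 19.2% of all genes. Over the 38 genes the log2 fold change had a median of -0.05, and over all genes of 0.01. It was negative in 21 of the 38 and positive in 17, with Fbn1 and Lum, both at 0.01, and Col5a1, at 0.00, turning negative under median-of-ratios scaling. In 31 of the 38 it lay within 0.25 of 0.

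The 95% intervals show what sizes of change these libraries could miss. In 35 of the 38 genes the interval of the log2 fold change stayed within 1 of 0, with Acta2, Spon2 and Thy1 outside. That bound is 2-fold on the scale of FPKM + 0.5. In 31 the interval stayed within 1.5-fold on that scale, with Col1a1, Col3a1, Mmp2 and Tgfb1 also outside. Fold changes by limma-trend are on the scale of log2(FPKM + 0.5), which understates the change of low genes. For low genes these intervals therefore do not bound the change in FPKM itself at 2-fold. With limma-voom the standard error on the log2 scale was 0.41 for Col1a1, against 0.19 by limma-trend, and 0.45 for Col5a2, against 0.16. Mean FPKM was under 1 in 16 of the 40 genes. Another 18 lay between 1 and 10 FPKM and 6 at 10 FPKM or above.

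**Figure D1:**
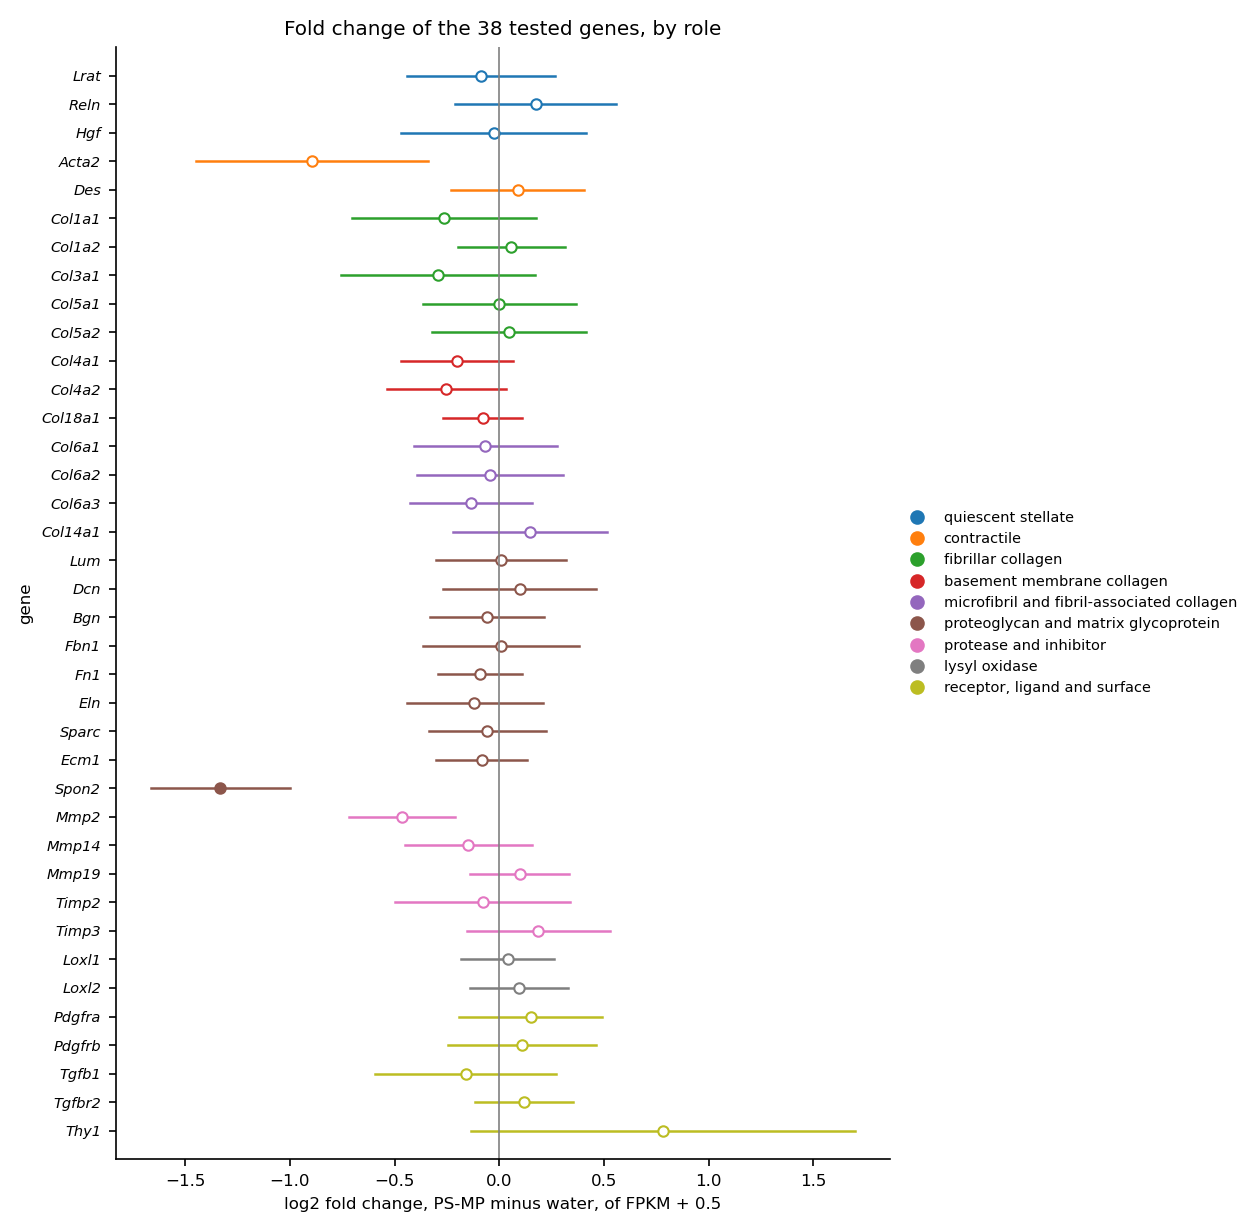
Log2 fold change of FPKM + 0.5, PS-MP minus water, for the 38 tested genes (points) with 95% intervals from limma-trend (lines), coloured by role; the filled point is the gene past the adjusted threshold. Most points lie within 0.25 of 0, and Spon2 at -1.33 is the lowest.

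None of the genes of quiescent stellate cells changed. Lrat, the enzyme that esterifies retinol for storage, was at 3.02, 2.36 and 3.50 FPKM in water and at 3.16, 2.30 and 2.78 in PS-MP. Reln, a secreted glycoprotein that marks stellate cells in liver, was at 3.10, 2.27 and 3.54 FPKM in water and at 3.87, 2.76 and 3.53 in PS-MP. Hgf, the growth factor that acts on hepatocytes through the MET receptor, was at 2.36, 1.66 and 2.67 FPKM in water and at 2.78, 1.67 and 2.11 in PS-MP. In all 3 genes the groups overlapped and replicate 2 was the lowest library of its group. The log2 fold change was -0.09 for Lrat (95% interval -0.44 to 0.27), 0.17 for Reln (-0.21 to 0.56) and -0.03 for Hgf (-0.47 to 0.41). Their adjusted p by limma were 0.848, 0.704 and 0.968. Mean FPKM of these 3 genes was similar, at 2.96 ± 0.57, 2.97 ± 0.65 and 2.23 ± 0.52 in water (SD, n = 3 each). The reads behind these means were 731, 3247 and 739 in water, over 5351, 23738 and 7186 merged exon bases.

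The other stellate cell genes, a list of 22 that holds retinoid, vascular and surface genes, had 21 tested members, of which 0 changed by limma-trend or limma-voom and 1 had an unadjusted p under 0.05. Their median log2 fold change was -0.04. The gene with the smallest p was Steap4, a metalloreductase, at 14.8, 15.02 and 15.1 FPKM in water and 26.8, 18.4 and 20.7 in PS-MP (0.52 ± 0.13 SE on the log2 scale, adjusted p = 0.15 by limma). Its groups did not overlap. Nt5e, the surface enzyme CD73 that forms adenosine, had -0.30, and the extracellular superoxide dismutase Sod3 had -0.19. Gfap was the untested member.

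The pair of contractile genes diverged in value. Des, the intermediate filament desmin, which stellate cells of rodents make in both states, was at 0.719, 0.534 and 0.936 FPKM in water and at 0.794, 0.719 and 0.875 in PS-MP. Its log2 fold change was 0.09 (95% interval -0.23 to 0.41, adjusted p = 0.83 by limma). Acta2, the alpha smooth muscle actin of myofibroblasts and of vessel walls (chromosome 19, 34241090 to 34255590, minus strand), was at 1.41, 0.430 and 0.972 FPKM in water and at 0.313, 0.200 and 0.214 in PS-MP. The highest PS-MP library lay below the lowest water library, but the water libraries themselves spread over more than 3 times their lowest value. Mean FPKM was 0.94 ± 0.49 for water and 0.24 ± 0.06 for PS-MP (SD, n = 3 each). The log2 fold change was -0.90 (95% interval -1.45 to -0.34, adjusted p = 0.181 by limma), so Acta2 did not pass over all genes.

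Few reads stand behind Acta2. They numbered 47, 16 and 31 in water and 9, 7 and 7 in PS-MP, in all 94 (95% exact Poisson interval 75.96 to 115.0) against 23 (14.58 to 34.51); these intervals cover counting error only. The log2 fold change was -1.74 with limma-voom, which adds less to low values, and its adjusted p was 0.196. The order of the water libraries for Acta2 was that of the summed fat markers given above, highest in replicate 1 and lowest in replicate 2. In PS-MP the order differed, since the fat markers were highest in replicate 3 and Acta2 in replicate 1. The part of fat transcripts in the Acta2 value was not tested. The 3 libraries with reads of Ucp1, the uncoupling protein of brown fat, are water replicates 1 and 3 and PS-MP replicate 3 (139, 15 and 68 reads, and 0 in the others). Without them, which leaves water replicate 2 against PS-MP replicates 1 and 2, the log2 fold change of Acta2 was -0.30. The lone water library is there assumed to vary like the others, and it was the lowest water library for Acta2. Leaving out only water replicate 1, 2 or 3 gave -0.66, -1.18 and -0.85. Leaving out only PS-MP replicate 1 or 2 gave -0.96 and -0.85. The adjusted p by limma was 0.0532 without water replicate 2 and 0.407 without water replicate 1. The ratio of Acta2 to Des was 1.96, 0.804 and 1.04 in water and 0.394, 0.278 and 0.244 in PS-MP.

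Other myofibroblast and smooth muscle genes were listed to set beside Acta2. Of 12, 8 were tested and 0 changed by limma-trend or limma-voom. The median log2 fold change was -0.13, with 7 of 8 negative, against 6163 of 13299 over all genes, and 6 of the 8 within 0.25 of 0. These genes share libraries, so they are not independent votes. An unadjusted p under 0.05 by limma-trend was found for 1 of the 8 (12.5%, against 13.1% of all genes). That 1 gene was Myl9, a regulatory light chain of smooth muscle myosin, at 1.25, 0.609 and 1.36 FPKM in water and 0.724, 0.216 and 0.115 in PS-MP (-0.91 ± 0.29 SE on the log2 scale, adjusted p = 0.246 by limma). Its groups overlapped, since PS-MP replicate 1 lay above water replicate 2. The actin-binding protein Cald1 had -0.13, and Myh11, the heavy chain of smooth muscle myosin, had -0.20 with overlapping groups. Tagln, Cnn1, Actg2 and S100a6 were not tested. Actg2, the gamma actin of visceral smooth muscle, had 5, 1 and 3 reads in water and 0 in each PS-MP library. Tagln, another smooth muscle protein, had 7, 8 and 10 reads in water and 5, 12 and 9 in PS-MP. It shares 62.42% of its exon bases with the antisense gene Gm48529 (at most 35 reads) and 5.43% with Pcsk7 (at most 550). Whether counting used strand is not stated, so the Tagln reads may partly belong to those genes.

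**Figure D2:**
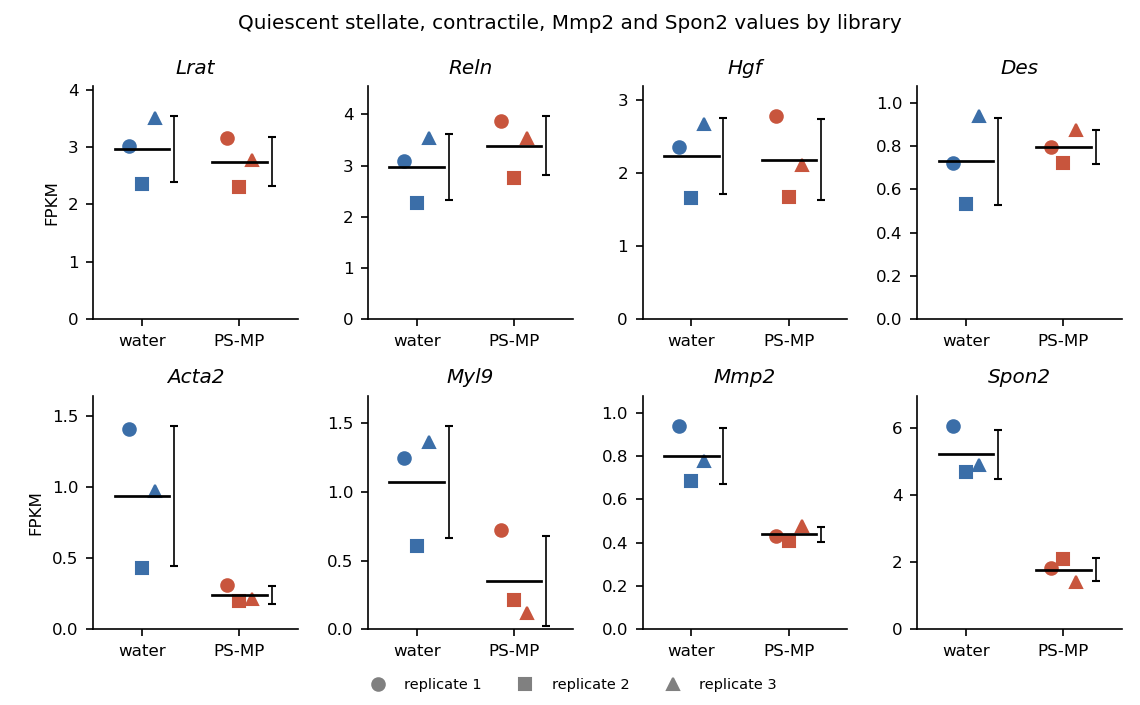
FPKM of 8 genes in each library; marker shapes are replicates, horizontal lines are group means and vertical bars are the SD (n = 3). Lrat, Reln, Hgf and Des overlap between the groups, whereas the PS-MP libraries lie below the water libraries for Acta2, Mmp2 and Spon2, and Myl9 overlaps.

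None of the 12 collagen genes changed by limma-trend or limma-voom. An unadjusted p under 0.05 with limma-trend was found for 0, against 13.1% of all genes. In all 12 the groups overlapped, and over all genes 19.2% did not overlap. The median log2 fold change of the 12 was -0.07, with 8 negative and 4 positive. With limma-voom Col4a2 had an unadjusted p of 0.0483. By limma-trend Col4a1 and Col4a2 fell under 0.05 without water replicate 2, Col4a2 without PS-MP replicate 1, and Col3a1 and Col1a1 without PS-MP replicate 3. None of these passed after adjustment. Fibrillar collagens, the load-bearing fibres of scar tissue, were low in these livers. Col3a1, the type III chain and the highest of them by group mean, was at 1.32, 0.896 and 1.52 FPKM in water and 0.724, 0.741 and 1.34 in PS-MP (log2 fold change -0.29, 95% interval -0.76 to 0.17, adjusted p = 0.574 by limma). PS-MP replicates 1 and 2 lay below every water library and PS-MP replicate 3 within their range; in the former pair Col5a1 was higher, at 1.06 and 0.776 FPKM. Col1a1, the alpha 1 chain of type I collagen, was at 0.472, 0.324 and 0.682 FPKM in water and 0.163, 0.306 and 0.521 in PS-MP (-0.27, adjusted p = 0.594 by limma). Its partner chain Col1a2 was at 0.556, 0.451 and 0.643 FPKM in water and 0.529, 0.586 and 0.658 in PS-MP (0.06).

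Type I collagen is built of both chains, so their ratio was also set out. Col1a1 over Col1a2 was 0.847, 0.717 and 1.06 in water and 0.308, 0.522 and 0.791 in PS-MP, and the groups overlapped. The size of the ratio depends on the merged exon lengths (6563 and 12426 bases), so only its differences between libraries can be read. Col5a1 and Col5a2, which regulate fibril diameter, had log2 fold changes of 0.00 and 0.05. The median over the 5 fibrillar genes was 0.00.

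The basement membrane collagens were all lower in value in PS-MP, and none passed. Col4a1, whose product forms the sheet under vessels and ducts, was at 5.82, 4.69 and 6.38 FPKM in water and 5.13, 4.67 and 4.61 in PS-MP (log2 fold change -0.20, 95% interval -0.47 to 0.07, adjusted p = 0.511 by limma). Col4a2, its partner chain, was at 4.91, 3.71 and 4.37 FPKM in water and 3.98, 3.48 and 3.17 in PS-MP (-0.25, -0.54 to 0.03, adjusted p = 0.434 by limma). The pair has the shared promoter printed above, and the ratio of Col4a1 to Col4a2 was 1.19, 1.26 and 1.46 in water and 1.29, 1.34 and 1.45 in PS-MP, within the range of the water libraries. Their exons share 22 bases on opposite strands, under 1% of either gene. Col18a1, the source of endostatin and made by hepatocytes as well, was far higher than any other collagen, at 101.2, 95.9 and 92.3 FPKM in water and 87.3, 86.0 and 101.2 in PS-MP (-0.08, 95% interval -0.27 to 0.11). The median over these 3 was -0.20; without water replicate 2 it was -0.32, and without the 3 libraries with Ucp1 reads it was 0.01.

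Among the microfibrillar and fibril-associated collagens, Col14a1, which binds the surface of collagen fibrils, was the highest, at 6.46, 5.04 and 7.53 FPKM in water and 7.56, 5.77 and 7.77 in PS-MP. Its log2 fold change was 0.15 (95% interval -0.22 to 0.51). The type VI genes Col6a1, Col6a2 and Col6a3, which form beaded microfibrils, had -0.07, -0.05 and -0.14, at means from 0.33 to 1.52 FPKM. The groups overlapped in each.

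**Figure D3:**
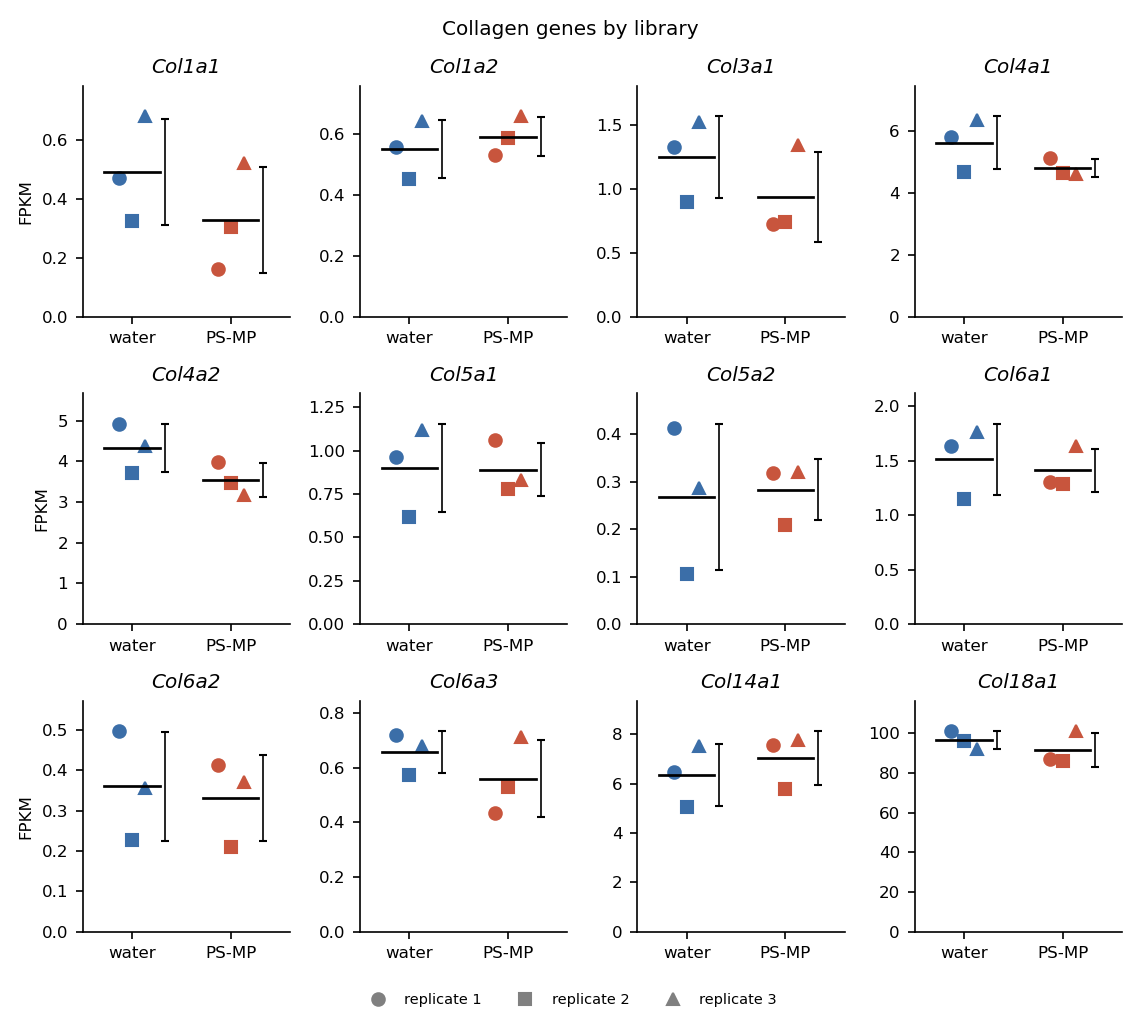
FPKM of the 12 collagen genes in each library; shapes are replicates, horizontal lines group means and vertical bars the SD (n = 3), and the axis of each panel starts at 0. The groups overlap in every panel, and water replicate 2 (square) is the lowest water library in 11 of the 12.

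The enzymes that fold, modify and export collagen gave no call either. Of 17 collagen biosynthesis genes, all tested, 0 changed by limma-trend or limma-voom, and the median log2 fold change was 0.00, with 1 unadjusted p under 0.05. That gene was P4ha1, a catalytic subunit of prolyl 4-hydroxylase, at 3.12, 2.95 and 2.58 FPKM in water and 2.32, 2.501 and 1.63 in PS-MP (-0.37 ± 0.15 SE, adjusted p = 0.348 by limma). Its groups did not overlap. Bmp1, which cleaves the C-terminal propeptide of procollagen, had -0.19, and Sec23a, a coat protein of the vesicles that carry procollagen, had 0.09. In a list of 17 other collagens and laminins, 16 were tested and 0 changed by limma-trend or limma-voom, 0 had an unadjusted p under 0.05, and the median was -0.02. Its smallest p belonged to the basement membrane linker Nid2 (-0.30), followed by Col15a1 (-0.19) and the perlecan gene Hspg2 (-0.12).

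Spon2 was the 1 gene of the 40 that changed. It encodes spondin 2, also called mindin, a secreted matrix protein that also takes part in the recognition of microbes (ENSMUSG00000037379, chromosome 5, 33198184 to 33218455, minus strand). Its level was 6.055, 4.71 and 4.91 FPKM in water and 1.82, 2.11 and 1.41 in PS-MP. The highest PS-MP library was less than the lowest water library by over 2 FPKM, and the spread within each group was small beside that gap. The mean fell from 5.22 ± 0.73 to 1.78 ± 0.35 FPKM (SD, n = 3 each), which is 2.52-fold lower on the FPKM + 0.5 scale. The log2 fold change was -1.33 (standard error 0.14, 95% interval -1.66 to -1.002, adjusted p = 0.0243 by limma). Reads were 271, 235 and 210 in water and 70, 99 and 62 in PS-MP, and no other annotated gene shares its exons.

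The call on Spon2 depends on which libraries are kept. Its adjusted p by limma was 0.0397 without water replicate 2, 0.0446 without PS-MP replicate 1 and 0.0367 without PS-MP replicate 3, which keeps the call. It was 0.105 without water replicate 1, 0.128 without water replicate 3 and 0.0539 without PS-MP replicate 2, with log2 fold changes of -1.23, -1.37 and -1.44. Without the 3 libraries with Ucp1 reads it was -1.08 (adjusted p = 0.479 by limma). With limma-voom on the recovered reads it was -1.55 (adjusted p = 0.00737).

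The other 8 proteoglycans and matrix glycoproteins include the highest levels of the set, and none of them changed. Fn1, fibronectin, which hepatocytes secrete into plasma in large amounts, was at 168, 145 and 153 FPKM in water and 149, 155 and 133 in PS-MP (log2 fold change -0.09, 95% interval -0.29 to 0.11). It took 34.0% to 39.5% of the summed FPKM of the 40 genes in each library. Fn1, Col18a1 and the secreted protein Ecm1 together took 66.6% to 71.8%, so a sum over the whole set would mostly follow these 3. Ecm1, which binds matrix and holds latent TGF-beta in check in liver, was at 38.1, 34.6 and 40.5 FPKM in water and 38.9, 36.1 and 31.7 in PS-MP (-0.08). Dcn, decorin, a small proteoglycan on collagen fibrils, was at 23.1, 18.0 and 29.3 FPKM in water and 26.2, 22.8 and 25.2 in PS-MP (0.10). Its relative Bgn, biglycan, had -0.06 at 15.6 ± 2.6 FPKM in water (SD, n = 3). Sparc, a collagen-binding glycoprotein, had -0.06, Lum, lumican, 0.01, Fbn1, the fibrillin of microfibrils, 0.01, and Eln, elastin, -0.12. Eln and Fbn1 were under 0.6 FPKM in every library.

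Among the proteases and inhibitors, Mmp2 stood below water in PS-MP without passing over all genes. Mmp2, gelatinase A, which degrades denatured and basement membrane collagen (chromosome 8, 92827291 to 92853420, plus strand), was at 0.938, 0.683 and 0.776 FPKM in water and 0.431, 0.409 and 0.477 in PS-MP. The groups did not overlap and the PS-MP libraries lay close together. The log2 fold change was -0.46 (standard error 0.11, 95% interval -0.72 to -0.21, adjusted p = 0.134 by limma), from 125 reads in water (95% exact Poisson interval 104.0 to 148.9) and 65 in PS-MP (50.17 to 82.85). With limma-voom it was -0.83 (adjusted p = 0.181). Mmp14, the membrane protease that activates pro-MMP2, had -0.15, and Timp2, which takes part in that activation and inhibits the enzyme, had -0.08. The ratio of Timp2 to Mmp2 was 3.35, 4.02 and 5.65 in water and 7.01, 6.45 and 8.22 in PS-MP.

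Mmp19, a protease of basement membrane proteins, was the highest of this class, at 16.1, 15.5 and 12.7 FPKM in water and 15.2, 17.0 and 15.045 in PS-MP (log2 fold change 0.10, 95% interval -0.14 to 0.33). Timp3, an inhibitor that binds matrix, had 0.19 and overlapping groups. Mmp19 shares 22.33% of its exon bases with Tmem198b and Timp3 21.28% with Syn3; no source used here states whether the counting used strand, and the other gene had at most 67 and 24 reads. Timp1, the inhibitor that rises with inflammation and fibrosis, was hardly detected, with 0, 0 and 4 reads in water and 1, 0 and 1 in PS-MP, and was not tested. By a 1-sided 95% Poisson bound a count of 0 allows up to about 3 reads. That is 0.223 and 0.199 FPKM in water replicates 1 and 2 and 0.212 in PS-MP replicate 2. The exact interval used for Mmp2 would allow up to 3.689 reads. Of 23 other proteases and inhibitors, 16 were tested and 0 changed by limma-trend or limma-voom, with 1 unadjusted p under 0.05 and a median of -0.04. The smallest p were those of the crosslinking enzyme Tgm2 (-0.32, adjusted p = 0.365 by limma), Mmp11 (-0.26) and Adamts1 (-0.34). Mmp11, with at most 18 reads, shares 5.58% of its exon bases with Chchd10, which had up to 2128. Mmp3, Mmp8, Mmp9, Mmp12, Mmp13, Plat and Timp4 were under the low-count rule.

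The lysyl oxidases, which crosslink collagen and elastin, were low. Loxl2, the highest of the 3, was at 0.365, 0.338 and 0.395 FPKM in water and 0.509, 0.395 and 0.372 in PS-MP (log2 fold change 0.09, 95% interval -0.14 to 0.33). Loxl1 had 0.04. Lox had 7, 4 and 9 reads in water and 12, 5 and 5 in PS-MP, in all 20 against 22, and was not tested.

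None of the receptors and ligands that act on stellate cells changed. Tgfbr2, the type II receptor for TGF-beta, was at 4.06, 4.98 and 4.89 FPKM in water and 4.75, 5.45 and 5.002 in PS-MP (log2 fold change 0.12, 95% interval -0.12 to 0.35). Tgfb1, the ligand that drives collagen synthesis, had -0.16 (95% interval -0.59 to 0.27). The PDGF receptors Pdgfra and Pdgfrb, through which stellate cells are driven to divide and migrate, had 0.15 and 0.11. The groups overlapped in each.

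In the TGF-beta signalling list, 23 of 25 genes were tested and 0 changed by limma-trend or limma-voom. An unadjusted p under 0.05 was found for 6 of the 23 (26.1%, against 13.1% of all genes), 4 higher and 2 lower in PS-MP, and the median was 0.03. Tgfbr1, the type I receptor kinase, was at 5.29, 5.82 and 5.88 FPKM in water and 7.44, 7.21 and 6.82 in PS-MP (0.31 ± 0.08 SE on the log2 scale, adjusted p = 0.157 by limma). Smad2, a signal transducer that this kinase phosphorylates, was at 2.05, 2.5 and 2.41 FPKM in water and 3.04, 2.99 and 3.53 in PS-MP (0.39, adjusted p = 0.191 by limma). Thbs1, which can activate latent TGF-beta, was at 0.293, 0.233 and 0.397 FPKM in water and 0.151, 0.114 and 0.121 in PS-MP (-0.36, adjusted p = 0.228 by limma). The groups did not overlap in these 3 genes, and none passed over all genes.

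All 9 genes of the PDGF signalling list were tested, 0 changed by limma-trend or limma-voom, and 2 had an unadjusted p under 0.05 (22.2%, against 13.1% of all genes). Pdgfc, a ligand, was at 0.958, 0.684 and 1.04 FPKM in water and 0.571, 0.456 and 0.593 in PS-MP (log2 fold change -0.42, adjusted p = 0.24 by limma). The phospholipase Plcg1 was at 5.72, 5.98 and 5.98 FPKM in water and 6.72, 6.64 and 7.46 in PS-MP (0.22, adjusted p = 0.299 by limma). The ligand Pdgfa had 0.17, and the list's median was 0.01. Over all 7 lists set beside the 40 genes, 110 of 125 genes were tested and 0 changed by limma-trend or limma-voom, with 6 higher and 6 lower at an unadjusted p under 0.05 (10.9% in all, against 13.1% of all genes).

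Thy1 had the highest fold change of the 38, and it came from 2 libraries; it is described here after its values were seen. Thy1 is a surface protein of portal fibroblasts and T cells and is abundant on neurons. It was at 0.220, 0.236 and 0.322 FPKM in water and 0.715, 0.209 and 2.06 in PS-MP, or 10, 12 and 14 reads against 28, 10 and 92. PS-MP replicate 2 lay below every water library, whereas PS-MP replicates 1 and 3 lay above. The log2 fold change was 0.78 (SE 0.40, adjusted p = 0.456 by limma), and 0.29 without PS-MP replicate 3. Without PS-MP replicate 2 it was 1.218 (adjusted p = 0.189 by limma). The neuronal SNARE gene Snap25 gave 1, 2 and 0 reads in water and 61, 19 and 860 in PS-MP, and Syt1, of synaptic vesicles, 156, 143 and 128 against 170, 217 and 604. The order of the PS-MP libraries was thus the same for Thy1 and Snap25, whereas Syt1 was lowest in PS-MP replicate 1. The part of neuronal transcripts in the Thy1 value was not tested.

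**Figure D4:**
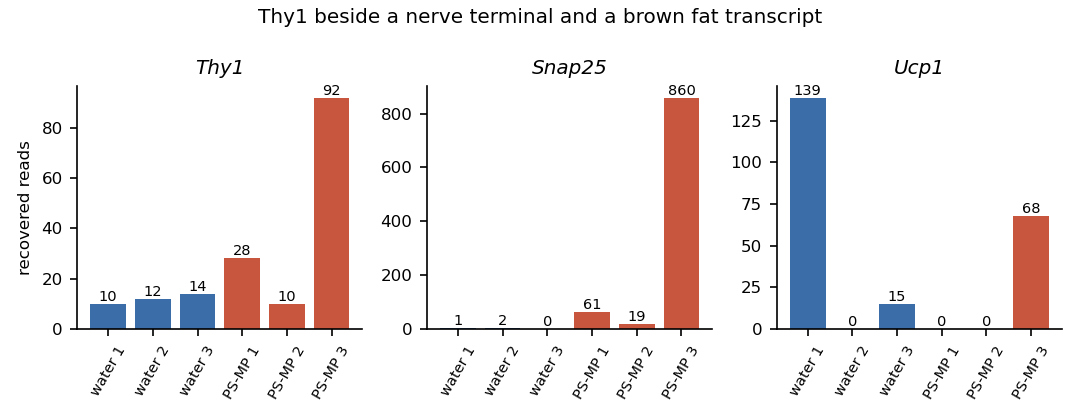
Recovered reads of Thy1, of the nerve terminal gene Snap25 and of the brown fat gene Ucp1 in each library, on linear axes from 0 (bars are single libraries, with the read number above each). PS-MP replicate 3 has the most Thy1 and Snap25 reads (92 and 860), while Ucp1 is highest in water replicate 1 (139).

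The genes of the set varied together between libraries of the same group. Water replicate 2 was the lowest of the water libraries for 32 of the 38 tested genes (84.2%), against 37.9% of all genes tested. PS-MP replicate 2 was the lowest PS-MP library for 21 of the 38 (55.3%), against 34.3% of all genes. Water replicate 3 was the highest water library for 25 (65.8%, against 36.6%). The median log2 deviation of the 38 genes from their mean over the 6 libraries was 0.07, -0.18 and 0.20 in water replicates 1, 2 and 3 and 0.03, -0.13 and 0.06 in PS-MP, whereas over all genes it ran from -0.02 to 0.02. These genes share libraries, so the counts describe the libraries and are not independent votes.

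Sinusoidal endothelial genes and portal fibroblast and mesothelial genes also mostly had replicate 2 lowest in both groups, and Kupffer cell genes did not. Water replicate 2 was the lowest water library for 11 of the 12 collagens, for 14 of the 21 other stellate cell genes and for all 8 sinusoidal endothelial markers, of which Stab2 and Kdr had the most reads. PS-MP replicate 2 was the lowest PS-MP library for 7 of these 8, whose summed level was 72.2, 57.2 and 72.3 FPKM in water and 70.2, 60.5 and 69.8 in PS-MP. Among 8 tested portal fibroblast and mesothelial genes, replicate 2 was lowest for 7 in water and 6 in PS-MP. Among the 16 tested other collagens and laminins it was lowest for 12 in water and 9 in PS-MP. Of 8 Kupffer cell markers, water replicate 2 was the lowest water library for 3, and PS-MP replicate 3, not 2, was the lowest PS-MP library for 7. Water replicate 2 was the lowest water library for 0 of 6 hepatocyte markers. Without the 3 libraries with Ucp1 reads, where water replicate 2 is the only water library left, the median log2 fold change over the 38 genes was 0.15 in place of -0.05. It was -0.15 without water replicate 2, 0.05 without water replicate 3 and 0.03 without PS-MP replicate 2. The part of cell composition in these values was not tested.

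**Figure D5:**
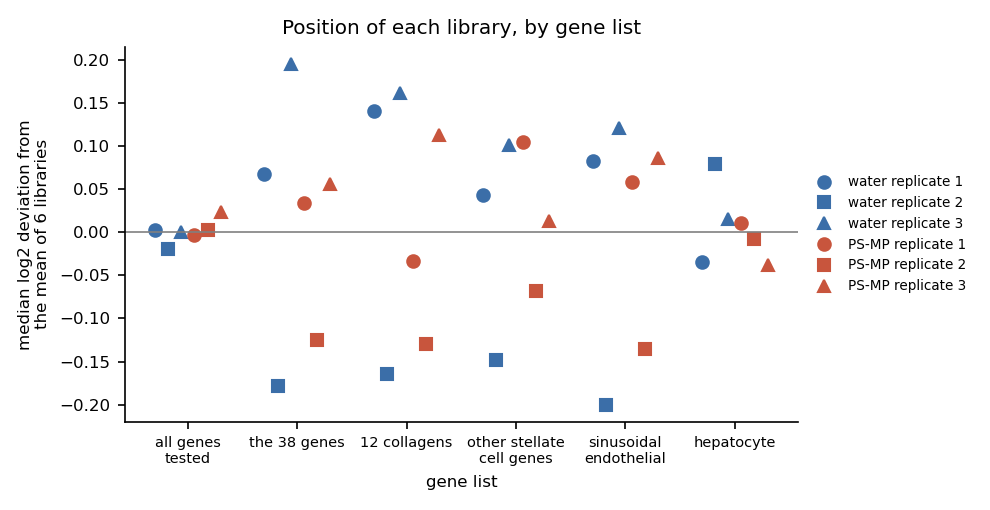
Median log2 deviation of each library from the mean of the 6 libraries, for all tested genes, the 38 tested genes of the set, its 12 collagens, other stellate cell genes, sinusoidal endothelial markers and hepatocyte markers (colour is group, shape is replicate). Replicate 2 of both groups (squares) lies lowest for the stellate, collagen and endothelial lists, with water replicate 2 at -0.18 for the 38 genes.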

How the data were processed

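Mouse liver RNA was compared between 3 water and 3 PS-MP libraries. The authors deposited FPKM per gene; per the submitters' processing notes, the tools were Trimmomatic 0.38 (trimming), HISAT2 2.1.0 (alignment) and featureCounts 1.6.0 (counting). These notes name the human build GRCh38, whereas every identifier in the files is of mouse GENCODE M21 (GRCm38), used here for symbols and coordinates. FPKM times merged exon length gave whole reads (within 0.01 reads for 100.0% of values), with 13082210 to 16948343 reads per library. The main test was limma-trend (limma 3.58.1, R 4.3.3) on log2(FPKM + 0.5), with group as the only term and Benjamini-Hochberg adjustment over 13299 genes with at least 0.66 CPM in 3 libraries and 15 reads in all. It was tested on simulated data. The 40 genes, 7 pathway lists, 9 marker lists and the alternatives were chosen with earlier results of these data known. Values per library are given for genes past the threshold or with an unadjusted p under 0.05, for Lrat, Reln, Hgf, Acta2 and Des, and for the highest gene of each role; up to 3 genes of smallest p are named per pathway list, and others were chosen after their values were seen. Alternatives were other pseudocounts, low-count rules and scaling, limma-voom, a replicate block, each library left out, and the libraries with Ucp1 reads left out. No libraries were duplicates: chi-square over degrees of freedom was 9.99 to 28.26 within groups.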

Additional observations from a re-analysis of the deposited data

How the results depend on the processing

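Over 15 named genes and 14 settings, 208 values were recomputed: 193 kept direction and side of the threshold, 10 turned direction and 5 lost a call, all 5 of Spon2. The number of changed genes over all genes was 57 to 68 under a minimum of 1 CPM in 3 libraries, a pseudocount of 0.1 or 1, or median-of-ratios scaling; the last moved the all-gene median by -0.018. It was 133 with limma-voom, 0 of 26854 with no low-count rule (2064 at an unadjusted p under 0.05 by limma-trend), 0 without the 3 libraries with Ucp1 reads (1037), and 0 to 36 leaving out each library in turn, with 0 without water replicate 3. The cause was not tested. Over all genes tested, deviations of same-numbered libraries hardly correlated (-0.036, 0.047 and -0.01). For the genes of the set this may not hold, since replicate 2 was often the lowest library in both groups. With the replicate block the standard error went from 0.181 to 0.09 for Timp2 and from 0.081 to 0.089 for Col18a1. Under that block 23 genes changed over all genes, among them Spon2 (adjusted p = 0.0489 by limma).

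Of the 38 genes, 0 changed with no low-count rule (Spon2 adjusted p = 0.0856 by limma) and 0 without the libraries with Ucp1 reads, and 0 or 1 with each library left out; it was 0 without water replicate 1, water replicate 3 or PS-MP replicate 2. An unadjusted p under 0.05 by limma-trend was found for 3 of the 38 with no low-count rule and 3 to 5 with each library left out. In the main fit it was found for 7.89% of the 38 and for 13.1% of all genes. The all-gene share with each library left out is not given here, so these counts describe the list only. The median over the 38 was 0.145 without the libraries with Ucp1 reads. There Lrat had 0.162, Hgf 0.304 and Fn1 0.069, against negative values with all libraries. Leaving out each library in turn gave -0.188 to 0.116 for Hgf, -0.217 to 0.025 for Lrat, -0.032 to 0.205 for Des and -0.004 to 0.163 for Mmp19, so each turned direction at least once. Depth limits the genes under 1 FPKM most: Acta2 was untested with CPM of at least 1 in 3 libraries, and Timp1 and Lox in every setting with a low-count rule.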

Other observations

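Markers of 3 other liver cell groups, and of brain and fat, were read in the same fit. Portal fibroblast and mesothelial genes, which include other makers of matrix, summed to 13.5, 9.82 and 12.1 FPKM in water and 10.7, 9.21 and 20.4 in PS-MP. Of 10 listed, 8 were tested and 0 changed by limma-trend or limma-voom (0 at an unadjusted p under 0.05), and their median log2 fold change was -0.05. The high value of PS-MP replicate 3 was carried by Gpm6a, a glycoprotein of mesothelium and of neurons, with 432 reads there against 8 to 45 in the other libraries. Gas6, a secreted ligand of the TAM receptors, was at 9.28, 7.73 and 7.76 FPKM in water and 7.47, 6.87 and 8.02 in PS-MP.

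Kupffer cell markers had a median log2 fold change of 0.10 over 8 tested genes, of which 0 changed by limma-trend or limma-voom and 1 had an unadjusted p under 0.05. Cholangiocyte markers had -0.04 over the 3 of 6 tested, with 0 changed by either and 0 at an unadjusted p under 0.05. Oligodendrocyte and astrocyte markers had 0.43 over 5 of 8 tested, with 0 changed by either and 1 at an unadjusted p under 0.05. That 1 gene was Slc1a2, which was also the median, and it had 12927 reads in water. The median is thus the value of a gene well detected without PS-MP. Mobp and Mog, which were not tested, had 0 reads in water. Of the 10 forebrain neuron markers, 5 were tested and 0 changed by either (all 5 at an unadjusted p under 0.05, against 13.1% of all genes); genes such as Snap25, with 3 reads in water and 940 in PS-MP, passed the low-count rule only through PS-MP, so this count is no support for a difference. Over 6 tested fat markers it was -0.79, with 0 changed and 0 at an unadjusted p under 0.05.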
